A study of Homo sapiens with 25 samples.

Results

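Mature miRNAs and their precursors were compared between A2780 cells carrying a miR-450a lentiviral vector (the miR-450a set) and A2780 cells carrying the empty vector (the control set). All human rows with a mean of at least 10 reads per 1000000 miRNA reads (RPM) over the 6 libraries were taken, whatever their change. This gave 421 of the 1033 human rows in the mature table, which has 1410 rows in all, and 293 of the 557 human rows in the precursor table, which has 934. The 421 mature miRNAs held 99.9% of the reads in every one of the 6 libraries. The last rows inside the minimum were miR-556-5p, miR-181b-1* and miR-551b*, each at a mean of 10.1 RPM. The first rows outside it were miR-3130-5p, miR-616-5p and miR-3136, at 9.65, 9.53 and 9.30 RPM.

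A2780 is an ovarian carcinoma line of human origin, long established in culture. The cells had received a lentivirus that expresses the primary transcript of miR-450a, or the same kind of lentivirus (pLVX) without an insert. Another set carried a vector for the primary transcript of miR-450b and is given for reference as the miR-450b set. Each set had 3 small RNA libraries of TRIzol-extracted RNA, read in single reads of 50 cycles on an Illumina HiSeq instrument. The labels name the libraries of a set biological replicates without stating separate transductions or cultures. The p-values then measure only how far these libraries vary, which may be technical. The depth behind each value is unknown, because the tables hold shares without read totals. The 12 mRNA and 4 PAR-CLIP samples among the 25 of the series were not analysed here.

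A miRNA is cut from the hairpin of a longer primary transcript, and the mature strand guides Argonaute to mRNAs that match its seed (bases 2 to 8). Many miRNA genes lie close together and are transcribed as a single unit, so that neighbours tend to be expressed in the same cells. Each hairpin can give 2 mature arms, of which the lesser is marked with a star in these tables. Because several miRNAs are expressed in particular tissues, the miRNA profile of a cell line is also a sign of its origin.

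A row outside the human members differed between the groups in a way that bears on the label. The SV40 row miR-S1-3p was at 70.2, 47.8 and 73.5 RPM in the miR-450a libraries, at 0, 0 and 0.267 in the control set and at 0, 0 and 0.5 in the miR-450b set. SV40 sequences are carried by some laboratory lines, such as the HEK293T cells often used to package lentiviral vectors. Which cells gave the reads of the 3 miR-450a libraries was not tested. No miRNA identifies A2780 by itself, so the label could not be checked directly. Pearson's r of log2(RPM + 10) was taken over the 421 human members and the 3 viral rows that reached the same mean, the SV40 row included. It was 0.965 to 0.989 between libraries of the miR-450a set and 0.962 to 0.983 between those of the control set. Between libraries of these 2 sets it was 0.661 to 0.751. It was 0.734 to 0.756 between miR-450a and miR-450b libraries and 0.900 to 0.964 between control and miR-450b libraries. Of the human members, 54 reached a mean of 10 RPM in the miR-450a set only and 29 in the control set only. Such rows had to differ between these 2 sets, while the miR-450b libraries took no part in the choice of rows. The ranges are thus not on equal terms, and r without such rows was not computed. Every value below is a difference between 2 sets of libraries. An effect of the vector and a difference in the source of the cells cannot be told apart in it. No count could be given without the libraries in doubt, since all 3 of the miR-450a set are concerned.

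The sequences of the miRNAs on which the comparison turns are shown here, as RefSeq gives them for GRCh38.p14, with the seed in capitals. RefSeq entries were matched for 313 of the 421 mature miRNAs. The first 6 are arms of the gene cluster of miR-450a, and of these miR-450a-1-3p and miR-450a-2-3p tell the 2 copies of the miR-450a hairpin apart.
hsa-miR-450a-5p: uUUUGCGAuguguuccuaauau
hsa-miR-450a-1-3p: aUUGGGAAcauuuugcauguau
hsa-miR-450a-2-3p: aUUGGGGAcauuuugcauucau
hsa-miR-450b-5p: uUUUGCAAuauguuccugaaua
hsa-miR-503-5p: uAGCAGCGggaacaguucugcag
hsa-miR-424-5p: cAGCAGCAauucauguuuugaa
The next 7 belong to the largest rises.
hsa-miR-196b-5p: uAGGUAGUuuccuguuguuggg
hsa-miR-296-3p: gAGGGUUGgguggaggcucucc
hsa-miR-296-5p: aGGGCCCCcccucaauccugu
hsa-miR-708-5p: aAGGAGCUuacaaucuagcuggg
hsa-miR-31-5p: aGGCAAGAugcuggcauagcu
hsa-miR-148a-3p: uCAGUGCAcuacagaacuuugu
hsa-miR-30a-5p: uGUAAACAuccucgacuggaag
The next 9 belong to the largest falls.
hsa-miR-214-3p: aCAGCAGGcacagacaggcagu
hsa-miR-199a-5p: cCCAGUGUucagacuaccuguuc
hsa-miR-199a-3p: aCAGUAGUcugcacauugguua
hsa-miR-199b-3p: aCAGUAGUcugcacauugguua
hsa-miR-137-3p: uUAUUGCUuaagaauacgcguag
hsa-miR-335-3p: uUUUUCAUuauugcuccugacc
hsa-miR-335-5p: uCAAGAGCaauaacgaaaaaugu
hsa-miR-143-3p: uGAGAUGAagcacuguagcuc
hsa-miR-145-5p: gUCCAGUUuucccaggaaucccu
The last 11, together with miR-196b above, carry 4 seeds, among them AUUGCAC, the most abundant seed of the miR-450a libraries. Among rows that reached 10 RPM in both groups, 3 of these seeds had members called in both directions as deposited. GGCAGUG had both directions only through miR-449a, which reached 10 RPM in the miR-450a set only.
hsa-miR-92a-3p: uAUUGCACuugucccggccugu
hsa-miR-25-3p: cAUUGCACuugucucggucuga
hsa-miR-92b-3p: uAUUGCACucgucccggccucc
hsa-miR-363-3p: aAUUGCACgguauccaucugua
hsa-miR-32-5p: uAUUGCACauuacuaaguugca
hsa-miR-196a-5p: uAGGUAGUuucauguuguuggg
hsa-miR-29a-3p: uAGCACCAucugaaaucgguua
hsa-miR-29b-3p: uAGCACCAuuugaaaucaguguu
hsa-miR-29c-3p: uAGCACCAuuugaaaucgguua
hsa-miR-34a-5p: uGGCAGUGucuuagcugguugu
hsa-miR-449a: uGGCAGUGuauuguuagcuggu

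miR-450a is the product the vector was made for, and it was read first as a check of the label, followed by the neighbours in its gene cluster. The level of miR-450a was 8967, 10075 and 20745 RPM in the miR-450a set and at 317, 405 and 446 in the control set. The groups did not overlap, replicate 3 was the highest of the miR-450a libraries, and the log2 change was 4.96 ± 0.37 (SE, adjusted p = 6.44e-07). A two-sided exact permutation test of the level gave p = 0.1, the smallest that 3 against 3 libraries allows. Fold changes here and below are on the scale log2(RPM + 10), which understates the change of low miRNAs, and adjusted p-values are from limma with Benjamini-Hochberg adjustment over all rows tested.

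The cluster lies on the minus strand of the X chromosome. The mature miR-450a sequence is read from 2 gene copies, at chrX:134540393-134540414 and chrX:134540564-134540585 (GRCh38.p14), and its reads cannot be assigned to either. The starred arms are separate. miR-450a-1*, at chrX:134540358-134540379, stood at 881, 1179.5 and 746 RPM against 12.7, 9.45 and 14.7, a log2 change of 5.39 ± 0.24. miR-450a-2*, at chrX:134540529-134540550, stood at 52.0, 37.0 and 43.9 against 8.32, 15.7 and 13.2, a change of 1.28 ± 0.19. The arm of the first copy thus changed more than that of the second in the same libraries, and the difference between the copies was not tested. Of the 10 tested members of the cluster, 9 had means of at least 10 RPM in both groups, and miR-503* reached that level in the miR-450a set only. The 9 rose, with a median log2 change of 1.34, beside 32.8% called higher and a median of 0.39 over all 338 miRNAs that reached it in both groups. Under median-of-ratios scaling 5 of the 9 held, beside 19.5% of the 338, while miR-450b, miR-424 and both arms of miR-542 lost theirs. Among the 9 are miR-450a, which the vector was made to raise, and its star arms, so these counts are not a result about the neighbours. The calls that held were those of miR-450a and its star arms, miR-503 and miR-424*.

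Among the neighbours, miR-503, which carries a seed related to that of the miR-16 family, stood at 1854, 2165 and 1811 RPM against 466, 394 and 439. Its libraries did not overlap and it rose by 2.14 ± 0.23. miR-424, a neighbour of miR-503 with the miR-16 seed, changed by 1.02 ± 0.38 and lost its call with median-of-ratios scaling (0.56). Its call was also lost without replicate 2 (0.79) or 3 (1.09) of the miR-450a set and without replicate 2 (0.78) or 3 (1.02) of the control set. miR-450b changed by 1.34 ± 0.39, without a call under median-of-ratios scaling (0.90) or without miR-450a replicate 3 (1.20). miR-542 changed by 1.17 ± 0.41, and its call was lost without miR-450a replicate 2 (1.22) or 3 (0.99) and without control replicate 1 (1.02) or 2 (0.93). The level of miR-450b was 207, 223 and 293 RPM in the miR-450a set, 71.6, 72.4 and 131 in the control set and 547, 850.3 and 1544 with the vector of its own.

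The counts and medians of this paragraph are over all 421 members. They include rows that reached 10 RPM in a single group, which had to differ. Of the 338 members that reached it in both groups, 49.4% were called. In the limma fit 238 (56.5%) passed an adjusted p of 0.05, of which 162 (38.5%) were higher and 76 (18.1%) lower in the miR-450a set. Libraries of the 2 groups did not overlap for 246 members (58.4%), of which 163 (38.7%) were higher and 83 (19.7%) lower. The values ranged from -9.06 to 7.54 on the log2 scale. Among these calls rises were more numerous and falls larger, with median changes of 1.51 among the 162 rises and -2.25 among the 76 falls. A log2 change of at least 4 in size was seen for 15 rises and 16 falls. The median over all 421 members was 0.47 as deposited and 0.04 with median-of-ratios scaling, under which 212 members (50.4%) were called, 110 (26.1%) higher and 102 (24.2%) lower. Rises thus made up 68.1% of calls as deposited and 51.9% with that scaling. All 76 falls and 110 of the 162 rises were called the same way under both scalings, and none was called the other way.

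**Figure D1:**
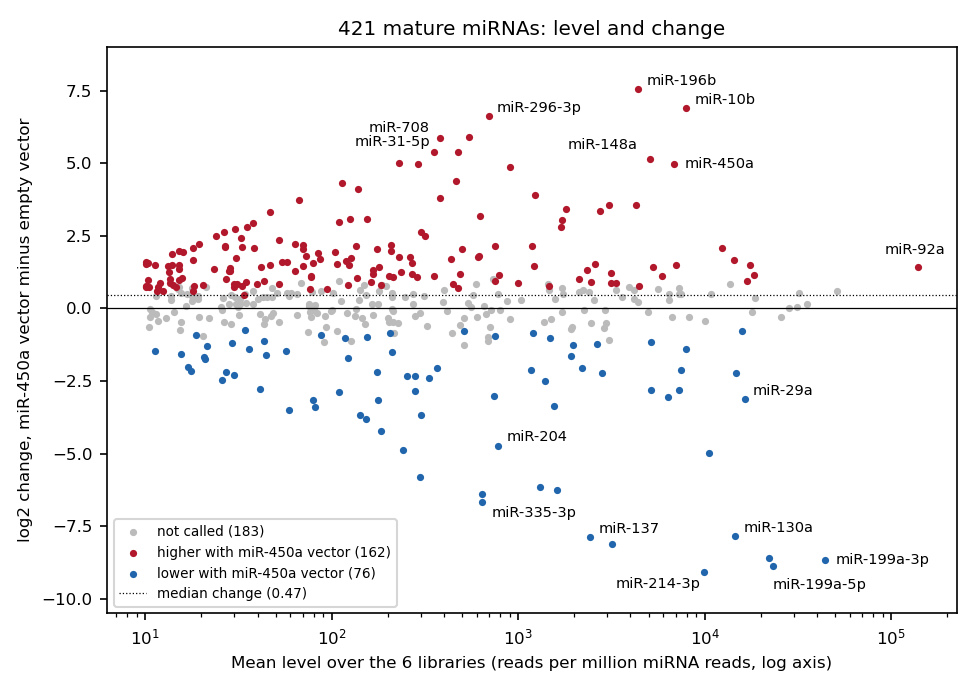
Mean level of each of the 421 mature miRNAs over the 6 libraries (RPM, log axis) against its log2 change in the miR-450a set. Red points are the 162 called higher, blue the 76 called lower and grey the rest, and the dotted line is the median change of 0.47; falls reach -9.06 and rises 7.54.

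The choice of members by a mean over both groups admitted rows that are high in a single group. Means of at least 10 RPM were reached in both groups by 338 members, of which 111 (32.8%) were higher and 56 (16.6%) lower (49.4% called). Under median-of-ratios scaling 66 (19.5%) of these were higher and 77 (22.8%) lower. In the miR-450a set alone 54 members reached it, 51 of them called higher, and in the control set alone 29 reached it, 20 of them called lower. Such single-group rows had to differ to be members. Where they are named below, their values are a description and their calls are not read. Counts and medians of families and lists are over the members that reached 10 RPM in both groups, and are set against the shares of the 338.

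The calls fix the direction of the following shares, which show how many reads they concern. The 162 members called higher held 49.3 ± 6.68% of miRNA reads in the miR-450a set and 16.01 ± 3.59% in the control set (SD, n = 3). The 76 called lower held 4.70 ± 0.302% and 44.6 ± 2.03%. The 183 without a call held 45.9 ± 6.49% and 39.4 ± 2.41%. Because the shares of a library sum to 1, the fall of very abundant miRNAs raises the share of all others. With the 6 rows of miR-199a, miR-199b and miR-214 removed and the shares recomputed, 125 members were higher and 85 lower, and the median change was 0.20.

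The 10 most abundant miRNAs of the 2 groups had 5 names in common. miR-92a, the last member of the miR-17~92 cluster, ranked 1 in the miR-450a set and 2 in the control set. It stood at 225501, 161846 and 222620.0 RPM against 54231, 96907 and 78279.9 and rose by 1.43 ± 0.28. miR-221, at rank 7 against 28, stood at 30319, 21494 and 25208 RPM against 6793, 11490.5 and 9240.0, and miR-218, at rank 10 against 33, at 19697, 29022 and 17111 against 6317, 6410.1 and 7301. Their libraries did not overlap and they rose by 1.50 and 1.68. miR-199a-3p, at rank 1 in the control set, was at rank 182 in the miR-450a set. miR-130a went from rank 9 to 223 and miR-29a from 8 to 51. miR-17, miR-103, miR-10a, miR-20a and miR-19b, at ranks 2 to 6 in the miR-450a set, had changes of 0.61, 0.54, 0.14, 0.04 and 0.01 and no call. miR-17 passed the test only without control replicate 1 (0.83).

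The largest rise was that of miR-196b, which lies between genes of the HOXA cluster. It was at 10007, 8278 and 8075 RPM in the miR-450a set, 21.8, 35.7 and 61.8 in the control set and 43.9, 42.3 and 51.1 in the miR-450b set. The miR-450a libraries were far above the other 6, and the log2 change against the empty vector was 7.54 ± 0.31 (adjusted p = 6.58e-09). miR-10b, which lies in the HOXD cluster, stood at 15741, 13562 and 18188 RPM against 72.1, 111 and 220.2 and rose by 6.90 ± 0.37. It too stood clear of the control libraries, of which replicate 3 was the highest. HOX genes are expressed by position along the body axis, and the miRNAs between them follow the same domains.

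Among the other HOX miRNAs a single arm was called. Of the 9 members of the HOX list counted, 2 were higher (22.2%, against 32.8% of the 338) and 1 lower (11.1% against 16.6%), with a median log2 change of 0.14. The 2 were miR-196b and miR-10b, and their star arms were single-group rows. miR-10a, of the HOXB cluster, stood at 40282, 29612 and 39999 RPM against 23554, 35196 and 43306, with overlapping groups and a change of 0.14 ± 0.29 (adjusted p = 0.712). miR-196a, made from a HOXB and a HOXC copy and sharing its seed AGGUAGU with miR-196b, stood at 3280.2, 2913 and 3198 against 4793, 8505 and 8094. It was called lower, at -1.14 ± 0.28.

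The arms of miR-296, of the imprinted GNAS region, came next in size, and both were high in the miR-450a set only. miR-296-3p stood at 1559, 1054 and 1539 RPM against 2.19, 3.41 and 6.13 (log2 change 6.63 ± 0.24). miR-296-5p stood at 1037, 1266 and 949 against 12.8, 7.23 and 5.24 (5.90 ± 0.23). The tested miRNAs of the other imprinted loci listed were high in the control set only. miR-335-3p, within the imprinted gene MEST, stood at 4.52, 2.01 and 1.45 RPM against 1173, 1356 and 1277, a log2 difference of -6.66 ± 0.23. For miR-335-5p the difference was -6.39 ± 0.31. The arms of miR-675, which is cut from the H19 transcript, differed by -3.40 and -4.22. All 6 tested arms of imprinted loci were single-group rows, so that no count of calls is given for them.

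Several miRNAs embedded in protein-coding genes stood higher in the miR-450a set. miR-708, within TENM4, was a single-group row at 928, 688 and 647 RPM against 2.69, 1.44 and 4.98, a difference of 5.86 ± 0.22. miR-629, within TLE3, stood at 2594, 1730.0 and 2642 RPM against 108, 154 and 177 and rose by 3.90 ± 0.29. The miR-450b libraries were at 3.90, 0.541 and 2.65 for miR-629. Of the 9 tested arms of this list 5 reached 10 RPM in both groups. Of these 5, 3 rose (60.0% against 32.8% of the 338) and 0 fell, with a median of 0.78, and 1 rise was left under median-of-ratios scaling (20.0% against 19.5%). The rises of miR-383 (0.78) and miR-582* (0.47) were lost without some single libraries, at 0.59 for miR-383 without control replicate 1 and 0.35 for miR-582* without control replicate 2.

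miR-31-5p, a miRNA lost in some carcinomas together with the nearby CDKN2A locus, was a single-group row at 837, 982 and 287 RPM against 6.36, 5.71 and 3.38, a difference of 5.38 ± 0.38. Its miR-450a libraries varied widely among themselves, with replicate 3 the lowest, but none came near the control libraries. miR-148a stood at 11245, 5717 and 12962 RPM against 229.8, 207 and 359 and rose by 5.14 ± 0.36. Its star arm, low in the control set, differed by 4.12 ± 0.20. miR-148b, which has the same seed CAGUGCA but another gene, changed by 0.49 without a call and passed only without miR-450a replicate 2 (0.98). miR-187, also a single-group row, stood at 581, 540.5 and 599 RPM against 7.29, 9.45 and 9.24, a difference of 4.97 ± 0.19.

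The largest falls were seen for miR-214 and for both miR-199 families of genes, typical products of mesenchymal cells and fibroblasts. miR-214-3p was at 25.2, 36.8 and 18.4 RPM in the miR-450a set, 21932, 23168 and 14029.9 in the control set and 23339, 18720.0 and 15363 in the miR-450b set. The miR-450a libraries stood alone at the low end, with a change of -9.06 ± 0.31 (adjusted p = 3.05e-09). miR-199a-5p stood at 70.9, 142 and 63.3 against 45674, 35903 and 57109 and changed by -8.88 ± 0.32. The 3p arms of miR-199a and miR-199b printed above have the same sequence, and in all 6 libraries the miR-199a-3p row held 2.00 to 2.01 times the value of the miR-199b-3p row. Both rows are thus parts of the same reads. miR-199b-5p, with a sequence of its own, stood at 22.8, 24.3 and 27.3 RPM against 2108, 1792 and 3864 and fell, at -6.14 ± 0.32.

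Other falls concerned miRNAs of connective and muscle tissue and some of those known from nervous tissue, of which others rose. miR-143 and miR-145, neighbours known from smooth muscle and fibroblasts, had low values in the miR-450a set. miR-143 stood at 36.6, 30.0 and 26.4 RPM against 2854, 2585 and 4153 and fell, at -6.27 ± 0.29, and stood at 666, 540.5 and 889 in the miR-450b set. miR-145, a single-group row, stood at 5.65, 3.79 and 5.52 against 834, 277 and 329.6, a difference of -4.86 ± 0.38. In skeletal and heart muscle miR-1 and miR-133a are the leading miRNAs, and here they stood at 11.9 ± 2.03 and 11.0 ± 4.89 RPM against 271 ± 67.8 and 293 ± 122 (SD, n = 3). They fell, at -3.65 ± 0.28 and -3.79 ± 0.35. miR-126, an endothelial miRNA, did not pass the test in either arm (-0.37 and -0.10).

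miR-137, which is high in neurons, stood at 5.95, 19.5 and 8.67 RPM against 5336, 3839 and 5420.4 and changed by -7.87 ± 0.34. miR-130a stood at 63.3, 204 and 82.5 RPM against 47239, 24668 and 14885, a change of -7.84 ± 0.50, and its star arm at 0, 0.223 and 0 against 943, 470.4 and 378. The groups did not overlap, although the control libraries of miR-130a spread widely. miR-204, within TRPM3, stood at 47.5, 49.1 and 38.9 against 2052, 1532 and 951, a change of -4.72 ± 0.33. In the neural list of 11 arms counted, 3 rose (27.3% against 32.8% of the 338) and 4 fell (36.4% against 16.6%). All rows of the list held 3.38 ± 0.530% of miRNA reads in the miR-450a set and 2.22 ± 0.162% in the control set (SD, n = 3). The rises were both arms of miR-9 (3.42 and 3.07) and miR-218. The falls were miR-137 and arms of the neighbours miR-132 and miR-212, with miR-132-3p at 934, 787 and 788 RPM against 3272, 3266 and 4111 (-2.07 ± 0.28).

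**Figure D2:**
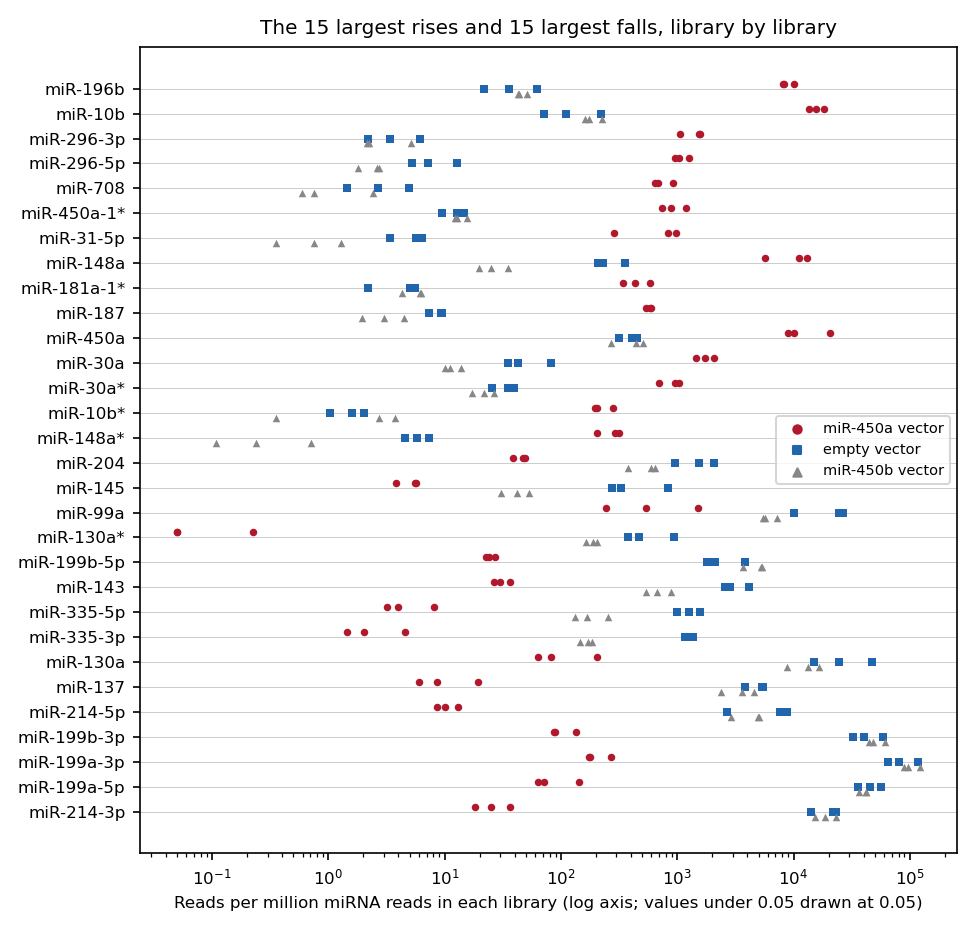
RPM of the 15 largest rises and 15 largest falls in each of the 9 libraries (log axis), with circles for the miR-450a vector, squares for the empty vector and triangles for the miR-450b vector. The 30 rows were chosen as changes whose groups do not overlap, so circles and squares lie apart by that choice; miR-450b libraries are shown for reference.

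let-7 is a family with the seed GAGGUAG whose members repress growth genes and rise as cells differentiate. Of its 11 arms counted, miR-98 included, 8 rose (72.7% against 32.8% of the 338) and 0 fell, with a median log2 change of 2.64 beside 0.39 over the 338. Under median-of-ratios scaling 7 rose (63.6% against 19.5%) and 1 fell (9.09% against 22.8%). The rise of let-7a* (0.66) was lost under that scaling (0.24) and with a pseudocount of 1 or 100 RPM. It was also lost without miR-450a replicate 1 (0.64), 2 (0.74) or 3 (0.61) and without control replicate 2 (0.59) or 3 (0.65). let-7a stood at 22073, 14696 and 23080.4 RPM against 3307, 6472 and 4675 and rose by 2.07 ± 0.32. let-7f stood at 7149, 6470.1 and 10108 against 452, 731 and 802 (3.57 ± 0.30) and let-7g at 5239.7, 4441 and 7220.1 against 359.6, 491 and 557 (3.55 ± 0.28). let-7c stood apart, at 1898, 1055 and 1566 against 1612, 3336 and 2202, with overlapping groups, a change of -0.64 ± 0.36 and adjusted p = 0.159. It was called lower under median-of-ratios scaling (-1.10) and with the miR-199 and miR-214 rows removed (-0.97). Its star arm, a single-group row, differed by -0.91. The miR-450b libraries held let-7c at 16165, 13161 and 8582 RPM. The list held 4.3 ± 0.918% of miRNA reads in the miR-450a set, 1.21 ± 0.377% in the control set and 6.46 ± 1.38% in the miR-450b set (SD, n = 3).

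let-7c shares a primary transcript on chromosome 21 with miR-99a, and the sister gene pairs of this kind combine let-7 with miR-100 and miR-125. miR-99a stood at 534, 1509 and 244 RPM against 26650.0, 24521 and 10186 and changed by -4.99 ± 0.58. The change was -5.66 without miR-450a replicate 2, the highest of its group, and -4.37 without replicate 3. miR-125b stood at 1949, 645 and 1543 RPM against 9450.3, 10470.5 and 6676 and changed by -2.79 ± 0.41. Of the 9 tested arms of miR-99, miR-100 and miR-125, 0 rose (against 32.8% of the 338) and 7 fell (77.8% against 16.6%), with a median of -1.26, and 4 falls were left without miR-450a replicate 2 or without control replicate 1. The calls of miR-100 (-0.76), miR-125a (-1.26) and miR-125a* (-1.01) were the ones lost. They stood at -0.54, -1.0003 and -0.93 without miR-450a replicate 2 and at -0.72, -1.25 and -0.67 without control replicate 1.

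The miR-181 family, known from lymphocyte development, rose in 5 of 6 arms counted (83.3% against 32.8% of the 338), with a median of 1.74. Under median-of-ratios scaling 5 were called as well (83.3% against 19.5%). miR-181a stood at 5675, 4081 and 5178 RPM against 344, 653 and 476 (3.35 ± 0.34). miR-181b stood at 3285, 2564 and 3286 against 243, 495 and 374 (3.05 ± 0.31). In the miR-30 family 3 of 10 arms counted rose, a share of 30.0% near the 32.8% of the 338, and 0 fell. Its leading rise was miR-30a, at 1730.3, 1447 and 2055 RPM against 34.8, 42.4 and 82.0 (4.85 ± 0.31), whereas miR-30e and miR-30b changed by -0.06 and -0.07 without a call. The rise of miR-30d (0.87) was lost with median-of-ratios scaling (0.40) and without control replicate 1 (0.61) or miR-450a replicate 1 (0.76) or 3 (0.78).

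miR-23, miR-27 and miR-24 come from a cluster on chromosome 19 and a sister cluster on chromosome 9. The arms of the chromosome 19 copies were lower. miR-27a stood at 1907, 1694 and 1273 RPM against 22722, 7799.8 and 8082 (-2.81 ± 0.43) and miR-23a at 1135, 783 and 965 against 6794, 3663 and 3547 (-2.22 ± 0.31). The corresponding arms from chromosome 9 changed by 0.49 for miR-27b and 0.51 for miR-23b, without a call. miR-27b passed the test only without miR-450a replicate 2 (0.97), the lowest of its group. miR-24, made in both clusters, stood at 2950.4, 4113 and 1486 RPM against 17333, 10871 and 8175 and fell, at -2.13 ± 0.39.

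The miR-29 family, which represses collagen and other matrix genes, gave different values for its gene pairs. miR-29a stood at 3396, 3874 and 2922 RPM against 31781, 29751 and 26448 and changed by -3.11 ± 0.22. miR-29c, from the other pair, stood at 938, 3564 and 1058 against 801, 513 and 398 and was called higher at 1.46 ± 0.49. Median-of-ratios scaling (1.00) ended that call. It was also lost without miR-450a replicate 2 (0.85), the highest of its group, and without control replicate 2 (1.42) or 3 (1.24). miR-29b is made by both pairs, and its star arms separate them. miR-29b-1*, from the pair of miR-29a on chromosome 7, stood at 8.62, 13.5 and 2.56 RPM against 156, 169 and 123 (-3.16 ± 0.34). miR-29b-2*, from the pair of miR-29c on chromosome 1, stood at 52.8, 59.1 and 46.4 against 8.60, 11.5 and 6.53 (1.74 ± 0.18). Both star arms were single-group rows, so that their opposite directions are a description only. The shared miR-29b was called lower at -2.49 ± 0.78, but its control libraries ranged from 430 to 5583 RPM. The call was lost without control replicate 1 (-1.56) and without miR-450a replicate 1 (-2.29) or 3 (-2.20), and the change was -3.39 without control replicate 2.

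The miR-17~92 cluster and its paralogs, which promote proliferation, held 43.4 ± 3.83% of miRNA reads in the miR-450a set and 25.1 ± 1.92% in the control set (SD, n = 3). Of 22 arms counted 6 rose (27.3% against 32.8% of the 338) and 3 fell (13.6% against 16.6%). Under median-of-ratios scaling 1 rose (4.55% against 19.5%) and 4 fell (18.2% against 22.8%), each share below that of all miRNAs counted. miR-92a made the larger part of the gain in reads, and was the single rise left under that scaling (0.97). The 3 falls came from the paralog on the X chromosome, among them miR-363 at 249, 257 and 159 RPM against 2597, 5180.4 and 928 (-3.36 ± 0.59, and -4.02 without control replicate 3). miR-20b changed by -3.02 ± 0.30 and miR-18b by -2.84 ± 0.49. miR-25, of the paralog on chromosome 7, rose by 1.14 ± 0.27 and lost its call with median-of-ratios scaling (0.68). miR-32, with the same seed as miR-92a but outside these clusters, stood at 216, 726 and 177 against 974, 98.9 and 179 RPM, with overlapping groups.

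**Figure D3:**
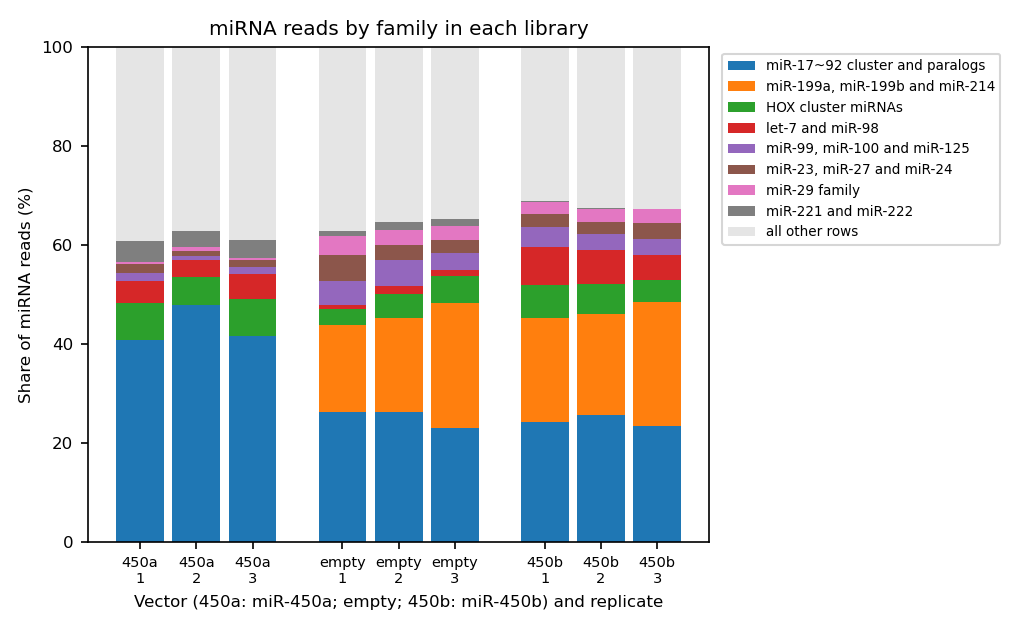
Share of all miRNA reads (%) held by 8 miRNA families in each of the 9 libraries, stacked to 100. The miR-199 and miR-214 band, 20.7% on average in the control set, is too thin to see in the miR-450a set, where the miR-17~92 band holds 43.4%.

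Further families that regulate the cell cycle or p53 responses gave mixed values. The neighbours miR-221 and miR-222, X-linked regulators of the inhibitor p27, rose in 3 of 4 tested arms (against 32.8% of the 338). miR-222 stood at 11562, 9283 and 10123 RPM against 3325, 4701 and 3129 (1.49 ± 0.32) and at 724, 549 and 343 in the miR-450b set. miR-34a, a transcriptional target of p53, stood at 394, 706 and 281 against 1978, 1849 and 1808 and changed by -2.11 ± 0.34. miR-192 and miR-194, also linked to p53, rose by 2.14 and 1.79. Of the 9 arms of the miR-15 and miR-16 family counted, 1 rose (11.1% against 32.8% of the 338) and 1 fell (11.1% against 16.6%), and the rise was lost under median-of-ratios scaling. The fall was miR-15b* at -0.78, which was lost without miR-450a replicate 1 (-0.73) or 3 (-0.66) and without control replicate 2 (-0.73) or 3 (-0.76).

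miRNAs marking epithelial and blood cells were low in both groups. Of the 14 rows of the epithelial list, which includes the miR-200 family, 2 were abundant enough to be tested. miR-200c stood at 333, 235 and 291 RPM against 50.2, 79.3 and 56.4 and rose by 2.05 ± 0.31, and miR-141 stood at 19.0, 27.1 and 14.0 against 18.5, 6.70 and 8.44, with overlapping groups. Of 3 blood cell arms counted 1 rose (33.3% against 32.8% of the 338), miR-486, by 1.45 ± 0.28, and miR-142-3p stood at 104, 199.8 and 57.0 against 224, 60.9 and 157. No row of the liver list or the embryonic list reached the mean of 10 RPM. miR-21, raised in many carcinomas, stood at 4605, 4024 and 6631 RPM against 21129.9, 16277 and 35479 and fell, at -2.21 ± 0.37.

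Several further families were lower. All 4 tested arms of miR-26 fell (against 16.6% of the 338), with a median of -1.15. miR-26b stood at 4021, 4908 and 4189.5 RPM against 9506, 11619.5 and 13614 (-1.39 ± 0.24), while the smaller fall of miR-26a (-0.78) was lost without control replicate 2 (-0.63). In the cluster of miR-183, miR-96 and miR-182, known from sensory cells, 3 of 5 arms counted fell (60.0% against 16.6%). miR-96 stood at 73.4, 173 and 108 against 1180.3, 449 and 228 (-2.06 ± 0.53, and -1.44 without control replicate 1). miR-182 (-0.85) lost its call without miR-450a replicate 1 (-0.83) or 3 (-0.80) and without control replicate 2 (-0.91) or 3 (-0.59). The 14 tested arms of the CLCN5 cluster on the X chromosome had a median of 0.02, with 2 called higher as deposited (14.3% against 32.8% of the 338) and 0 under median-of-ratios scaling. Without control replicate 1 the number was 4. Of 11 arms linked to energy metabolism, 2 rose (18.2% against 32.8% of the 338) and 1 fell (9.09% against 16.6%). The rises were miR-378 (0.93), which is made within PPARGC1B, and miR-33a* (0.81), and both were lost under median-of-ratios scaling (0.47 and 0.37) and without miR-450a replicate 1 (0.82 and 0.74). miR-378 was also lost without miR-450a replicate 3 (0.91) and without control replicate 1 (0.63), and miR-33a* without control replicate 2 (0.64). The fall, miR-33b* (-0.85), was lost without miR-450a replicate 1 (-0.77).

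The 2 arms of a hairpin come from the same transcript. Arms were paired by name, so the main arm of a multi-copy miRNA pools its copies, while a star arm can come from a single copy. Such pairs are not repeat readings of the same transcript, as for miR-181a (3.35) and miR-181a-2* (-0.24). There were 171 pairs of tested arms over 164 hairpin names. In 125 of them both arms reached 10 RPM in both groups. Among these 125, both arms were called higher in 18 pairs and lower in 16. A single arm was called in 42 and neither in 49, and no pair was called in opposite directions. Of the 338 single miRNAs 32.8% were higher and 16.6% lower. Pairs were counted with the calls as deposited only. The single-arm calls of miR-17* and miR-93*, for example, were lost under median-of-ratios scaling. The log2 changes of the 2 arms had a Pearson's r of 0.915 across the 125 pairs, which share libraries and, in part, a main arm. They lay within 1 log2 unit in 106 pairs and more than 2 apart in 3. Of all 171 pairs 19 were more than 2 apart. Several of the pairs farthest apart had a lesser arm under the pseudocount in a group, such as miR-196b* at 28.1, 30.1 and 32.2 RPM against 0.166, 0.0822 and 0. With single-group rows included, miR-29b and miR-29b-2* were called in opposite directions.

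**Figure D4:**
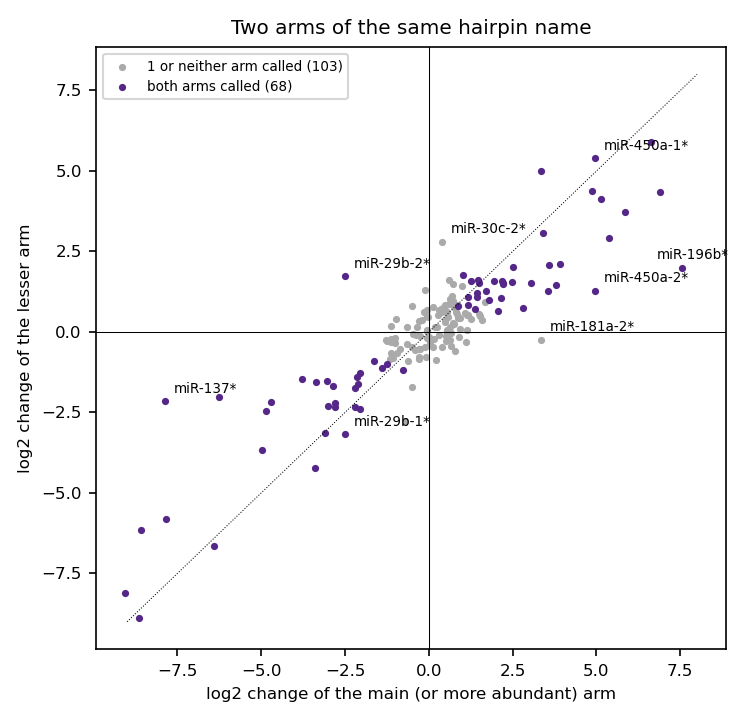
log2 change of the main arm against that of the lesser arm for 171 pairs of arms of the same hairpin name; the dotted line marks equal change. Of the 171 pairs 68 have both arms called (purple), single-group rows included, and 46 of the 171 pairs hold such a row.

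Star arms of other gene copies that share a main arm are given as values. miR-181a-1*, from the copy on chromosome 1, was a single-group row and stood at 434, 341 and 582 RPM against 2.19, 5.59 and 5.07 (4.99 ± 0.23). miR-181a-2*, from the copy on chromosome 9, stood at 69.6, 29.0 and 79.2 against 40.2, 85.4 and 85.1, with overlapping groups and a change of -0.24 ± 0.45 (adjusted p = 0.665). miR-30c-2*, also a single-group row, stood at 90.6, 49.5 and 67.7 against 1.08, 1.23 and 1.07 (2.80 ± 0.19), whereas miR-30c-1* stood at 55.0, 55.4 and 21.2 against 64.3, 55.2 and 62.8 (-0.47 ± 0.29). miR-30c itself, shared by the 2 copies, changed by 0.40 without a call. The gene of miR-30c-2 lies near that of miR-30a on chromosome 6. The differences between copies were not tested.

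Seeds summarise which target sites the miRNA pool can read. The 313 matched members carried 252 seeds. Among the members that reached 10 RPM in both groups, 29 seeds were shared by at least 2, of which 10 had rises only, 12 falls only, 3 both and 4 no call. Of all 338 such members 49.4% were called, so a call within a shared seed is common and these counts are a description. Shared seeds were not counted under median-of-ratios scaling. AUUGCAC, carried by miR-92a, miR-25, miR-92b, miR-363 and miR-32, had the highest share in the miR-450a set, at 23.1 ± 4.10% of miRNA reads against 9.48 ± 2.47% in the control set (SD, n = 3). AAAGUGC, of miR-17, miR-20a and their paralogs, among them miR-93 and miR-106b, followed at 13.5 ± 4.41% against 10.8 ± 1.74%. GAGGUAG, of let-7, stood at 4.27 ± 0.915% against 1.19 ± 0.377%. CAGUAGU, of the 3p arms of miR-199, went from 13.2 ± 4.03% in the control set to 0.0310 ± 0.00804% in the miR-450a set. UUUGCGA, the seed of miR-450a, held 1.33 ± 0.650% against 0.0390 ± 0.00658%.

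The other seeds with calls in both directions held fewer reads. AGGUAGU, with miR-196b up and miR-196a down, stood at 1.19 ± 0.119% of reads against 0.717 ± 0.205%. AGCACCA, of miR-29a, miR-29b and miR-29c, stood at 0.555 ± 0.210% against 3.24 ± 0.515%, since miR-29a held most of its reads in the control set. The rise in AGCACCA was that of miR-29c alone, whose call was lost under median-of-ratios scaling (1.00). The seed GGCAGUG is carried by miR-34a and by miR-449a, which is known from ciliated epithelia. miR-449a was a single-group row, at 22.1, 36.5 and 20.0 RPM against 5.17, 3.90 and 3.02, so GGCAGUG is not counted among the seeds with both directions.

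Base composition differed little between the calls as deposited, taken here over all matched members with single-group rows included, as a description. The median GC content of the mature sequence was 50.0% for the 109 matched rises, 45.5% for the 66 matched falls and 45.5% for the 138 matched members without a call. The first base was U in 43.1%, 42.4% and 39.9% of them.

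Precursors sum the reads of both arms. Of the 293 tested, 185 (63.1%) were called, 130 (44.4%) higher and 55 (18.8%) lower, and with median-of-ratios scaling 164 (56.0%) were called, 88 (30.0%) higher and 76 (25.9%) lower. The groups did not overlap for 187 precursors (63.8%), 132 (45.1%) higher and 55 (18.8%) lower. The 70.3% of calls that were higher became 53.7%, and the median log2 change of 0.56 became 0.03. Reads of a mature sequence shared by several copies are divided among their precursors, so such rows repeat each other. mir-214 stood at 33.8, 49.8 and 28.4 RPM against 30741, 30826 and 16735 and changed by -9.08 ± 0.31 (adjusted p = 1.85e-10). mir-450a-1 and mir-450a-2 rose by 5.06 ± 0.34 and 4.85 ± 0.36.

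Genes of 289 precursors were found in the RefSeq table, and 98 of these lay within 10000 bases of another, in 36 groups of neighbours. Without the 3 precursors that reached 10 RPM in the control set only, 94 precursors stood in 34 groups. Calls were higher only in 18 of these and lower only in 8, and every member was called in 9 of the former and 4 of the latter, where 39.8% of the 249 precursors that reached 10 RPM in both groups were higher and 18.5% lower. In 4 groups members were called in both directions, and in 4 no member was called. The groups called higher throughout were the let-7 groups on chromosomes 9, 22 and X, the 3 pairs of miR-181 genes, miR-192 with miR-194-2, miR-221 with miR-222 and the cluster of miR-450a. The groups lower throughout were miR-214 with miR-199a-2, miR-29a with miR-29b-1, miR-132 with miR-212 and miR-23a with miR-27a and miR-24-2. Groups with both directions held a precursor whose reads are shared with a copy elsewhere. These were miR-29c with miR-29b-2, let-7a-2 with miR-100, the cluster of miR-23b and the cluster of miR-106a and miR-363. The same limit holds for groups called in a single direction, such as the let-7 groups and the miR-181 pairs of chromosomes 1 and 9. Those groups partly repeat the same reads. The star arm of the chromosome 9 copy alone, miR-181a-2*, changed by -0.24 without a call. Within the miR-450a cluster the changes ran from 1.09 for mir-424 to 5.06 for mir-450a-1.

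**Figure D5:**
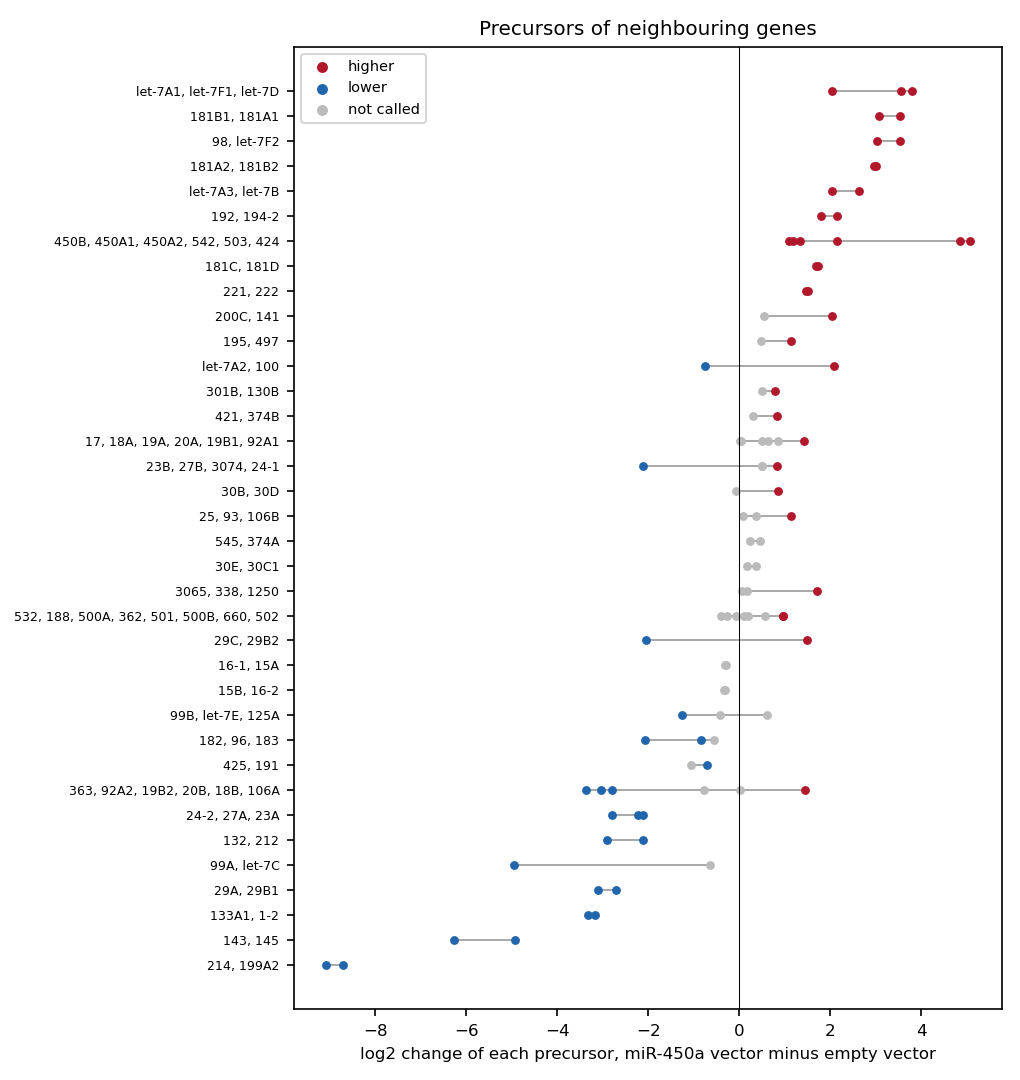
log2 change of each of the 98 precursors in 36 groups of neighbouring genes, ordered by the median of the group; red is called higher, blue lower and grey not called. Calls are higher only in 18 groups and lower only in 10, from -9.08 for mir-214 to 5.06 for mir-450a-1; precursors of multi-copy miRNAs share reads, and 3 of the 98 are single-group rows.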

How the data were processed

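The small RNA data were 9 libraries of A2780 cells, 3 per vector. Per the file headers, the deposited values are fractions, the relative frequency of each mature miRNA or precursor in a library, and each column summed to 1. The sources used here name no aligner or annotation for them and no read totals, so no counting interval, detection limit or count test was computed. A star marks the lesser arm, and several gene copies of a mature miRNA stand in 1 row.

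Fractions were multiplied by 1000000 (RPM). Human and viral rows averaging 10 RPM or more in the 6 libraries compared were fitted as log2(RPM + 10) with limma 3.58.1 (R 4.3.3, trend on, all 9 libraries), with Benjamini-Hochberg adjustment over all rows tested and a threshold of 0.05. The code was tested on simulated data. Python 3.11.15 and matplotlib 3.10.9 made summaries and figures.

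Members, lists and tests were chosen with earlier results of these data known. Named miRNAs were the arms of the miR-450a cluster, the 15 largest rises and falls without overlap between groups, the 10 leading miRNAs per group, the 2 most abundant members of each list with all called members where at most 5 were called, the 5 largest precursor changes each way and hairpins with arms called oppositely; other list members, gene copies and seed partners were chosen after their values were seen, and not every miRNA of the rule is printed. Mature sequences and gene positions come from RefSeq (GRCh38.p14); names without an arm were taken as the arm known to dominate. Settings varied one at a time were the pseudocount (1 or 100 RPM), the filter (none, or 100 RPM), median-of-ratios scaling, no trend, the 6 libraries only, a replicate block, removal of the miR-450 rows, and each library left out. Further alternatives, added after seeing the data, were removal of the miR-199 and miR-214 rows and a minimum of 10 RPM in both groups. Family and list counts, pairs of arms and shared seeds were taken over the rows of that minimum, from the same fit.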

Additional observations from a re-analysis of the deposited data

Results flagged for a closer look

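Signal appeared in viral rows of the tables, outside the human miRNAs compared, above the level of every control library. The SV40 row miR-S1-3p had a mean of 63.8 ± 13.95 RPM (SD, n = 3) in the miR-450a libraries, and 2 control libraries were at 0 with the highest at 0.267 RPM. The row hvt-miR-H14*, named for a herpesvirus of turkeys, had a mean of 45.9 ± 9.83 RPM in the miR-450a set against 17.3 ± 3.23 in the control set and 2.32 ± 0.867 in the miR-450b set (SD, n = 3). The HIV-1 row miR-TAR-3p overlapped between the groups, at 275, 155 and 392 RPM in the miR-450a set and 209, 203 and 219 in the control set. What gave these reads was not tested.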

How the results depend on the processing

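The counts of called miRNAs stayed within 1.5 times their values except where the minimum mean was raised to 100 RPM, which tests fewer rows. There 139 mature miRNAs were called, 85 of them higher, and 81 precursors were higher. Leaving out each library in turn gave 205 to 242 called mature miRNAs and 161 to 188 called precursors, and a log2 change of miR-450a from 4.59 to 5.19, called each time. No value called in the main fit was called in the opposite direction in any other setting run. The other settings were not compared with each other, and values without a call that crossed 0 were not counted. Of 256 miRNAs and precursors followed singly, median-of-ratios scaling took 22 calls away and added 15, and leaving out single libraries took away 8 to 19.

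The replicate numbers did not pair the libraries. Deviations from the group means correlated at -0.401, -0.513 and 0.418 for the same-numbered mature libraries, and at -0.346, -0.482 and 0.442 for precursors. miR-450a replicate 2 and control replicate 1 deviated together (0.646). With a replicate block 242 mature miRNAs and 182 precursors were called. The spread of miR-17, miR-20a, miR-19b and miR-16 between libraries of a group limits what could be called among them. Read depth being unknown, the precision of low rows cannot be given.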
